A study of Mus musculus with 45 samples.

Results

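Transcripts of mouse embryonic stem cells (mESCs) without Dppa4 were compared with those of wild-type (WT) mESCs while the H3K9me2 methyltransferases EHMT1 and EHMT2 were inhibited. The members were the 3 Dppa4 knockout (KO) libraries and the 3 WT J1 libraries given UNC0638 for 48 h, 6 of the 45 libraries of the series. They were chosen by their labels and not by any measured value. Both lines were grown in medium with serum and LIF on fibroblast feeders. The KO line had lost DPPA4 through CRISPR/Cas9 editing, and the WT line was the parental J1. The sources speak of 3 independent clones for each line but do not say which part of the gene was cut, so a difference between KO and WT is also a difference between separately grown clones. UNC0638 is a small molecule that blocks the catalytic sites of EHMT1 and EHMT2. Another 6 libraries of the same lines, given the solvent DMSO for 48 h, served to show how far each difference was already there without the inhibitor. RNA was read as bulk polyA libraries, so fewer cells of a type and less RNA per cell cannot be told apart.

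DPPA4 and its partner DPPA2 are small DNA-binding proteins of pluripotent cells and germ cells that act as a pair on promoters and on young LINE-1 elements. In mESC cultures they lie upstream of the transcription factor DUX, and they are known for their part in the rare 2-cell-like cells (2CLC), which express Zscan4 genes and the endogenous retrovirus MERVL as the 2-cell embryo does at zygotic genome activation. H3K9me2 is a repressive histone mark that EHMT1 and EHMT2 write over broad domains, among them the clusters of 2-cell genes. The comparison therefore addressed which genes and repeats reach their level in inhibited cells only when DPPA4 is present.

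The 12 libraries of the experiment held 8399885 to 12710949 gene reads each, and repeats took 2.41% to 5.99% of the reads. Values are read counts divided by a size factor per library (normalized counts), differences are KO minus WT on log2(normalized count + 1) with a standard error (SE), and p-values come from limma with Benjamini-Hochberg adjustment over all 17258 genes or 781 repeat families tested. A feature was called at an adjusted p below 0.05 and an absolute log2 difference of at least 1. WT UNC0638 replicate 3 stood apart with the highest 2-cell transcripts of the experiment. KO UNC0638 replicate 3 stood apart in transcript length: its short transcripts lay 0.27 above and its long ones 0.24 below the gene means (median log2), against -0.14 to 0.2 and -0.13 to 0.16 in the other 11 libraries. Calls and counts of calls that rest on either library are given with and without it. The mESC markers Pou5f1, Sox2, Nanog, Esrrb, Klf4 and Zfp42 were abundant in every library, with summed normalized counts of 36480 to 42082 in WT UNC0638 and 47920 to 50520 in KO UNC0638, and 0 of the 6 were called by limma, edgeR or DESeq2 (2 below an unadjusted p of 0.05 in each).

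Dppa4 itself (ENSMUSG00000058550.15, chr16:48283733-48294237, plus strand, GRCm38) had 726, 775 and 772 normalized counts in WT UNC0638 and 0 in each KO library, at least 799-fold lower with 3 reads over the KO libraries as the floor. All 6 KO libraries thus matched their labels. Its neighbour and partner Dppa2 (chr16:48303908-48319723) had 640.1, 739 and 666 normalized counts in WT UNC0638 and 737, 722 and 953 in KO UNC0638. The ranges overlapped, and the log2 difference of 0.23 (SE 0.16, adjusted p = 0.446) was not called. Ehmt1, with a log2 difference of -0.12 (SE 0.20, adjusted p = 0.789), and Ehmt2, with -0.09 (SE 0.24, adjusted p = 0.882), were not called either, so no difference in the transcripts of the inhibited enzymes was detectable between the lines. A pair of processed pseudogenes that carry Dppa4 sequence also went to 0. Gm14058 (chr2:122214620-122215354), 98.9% identical to a Dppa4 transcript over 735 of its 735 bases, had 365, 418 and 457 normalized counts in WT UNC0638 and 0 in KO. Gm5501 (chr18:9916927-9917758), 96.8% identical over 533 of 832 bases and named after its values were seen, had 67.8, 87.8 and 87 in WT UNC0638 and 0 in KO. Reads that fit several places were written to a single random place. The alignment also allowed no introns, so reads across exon junctions of Dppa4 could fit a copy without introns but not Dppa4 itself. The counts of both pseudogenes may therefore be reads of Dppa4 and are uncertain, and their origin was not tested.

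Under UNC0638, 399 genes were lower in KO than in WT, 2.31% of those tested, and 168 were higher, which was 0.973%. The lowest values belonged to 2-cell genes such as Gm4340, Usp17lb and Zscan4c, and 95 of the 399 lower genes had no read in any KO UNC0638 library. By annotation, 335 of the lower genes were protein coding (of 13787 tested) and 31 were processed pseudogenes (of 1373), while the higher genes were 142 and 2 of these. The medians of the log2 differences were -2.73 and 1.38, against -0.04 over all genes. The lower count rested on the WT libraries, since it was 122 without WT UNC0638 replicate 2 and 125 without replicate 3, and the higher count was 55 and 70. Leaving out both UNC0638 libraries numbered 3 gave 100 lower and 56 higher.

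Zscan4c and Zscan4d, DNA-binding SCAN and zinc-finger proteins of the 2-cell embryo, and the germline genes Syce1 and Mael were among the genes that were 0 or nearly 0 in KO. Their promoters are shown because the first pair lies in the Zscan4 cluster and the second does not, and because the pairs differ in CpG, the dinucleotide at which DNA is methylated. Each line gives the 250 bases before the RefSeq start on GRCm38.p6, 5′ to 3′ on the gene's strand, with CG in capitals. Zscan4c lies at chr7:11005495-11005744 (plus), Zscan4d at chr7:11166149-11166398 (minus), Syce1 at chr7:140787855-140788104 (minus) and Mael at chr1:166238745-166238994 (minus).
Zscan4c: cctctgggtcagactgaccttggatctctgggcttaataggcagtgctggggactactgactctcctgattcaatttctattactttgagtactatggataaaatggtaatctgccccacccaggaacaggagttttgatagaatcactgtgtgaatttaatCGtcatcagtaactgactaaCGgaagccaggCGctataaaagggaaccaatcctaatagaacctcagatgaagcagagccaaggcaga
Zscan4d: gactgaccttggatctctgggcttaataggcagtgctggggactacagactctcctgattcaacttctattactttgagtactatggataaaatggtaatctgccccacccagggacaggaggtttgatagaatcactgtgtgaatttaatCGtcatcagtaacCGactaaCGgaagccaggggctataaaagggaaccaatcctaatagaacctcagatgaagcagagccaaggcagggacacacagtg
Syce1: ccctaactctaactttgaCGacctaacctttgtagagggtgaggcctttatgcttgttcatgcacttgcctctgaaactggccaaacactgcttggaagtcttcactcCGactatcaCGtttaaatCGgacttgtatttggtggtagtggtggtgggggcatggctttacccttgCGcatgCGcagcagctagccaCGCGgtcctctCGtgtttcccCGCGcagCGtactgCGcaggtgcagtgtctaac
Mael: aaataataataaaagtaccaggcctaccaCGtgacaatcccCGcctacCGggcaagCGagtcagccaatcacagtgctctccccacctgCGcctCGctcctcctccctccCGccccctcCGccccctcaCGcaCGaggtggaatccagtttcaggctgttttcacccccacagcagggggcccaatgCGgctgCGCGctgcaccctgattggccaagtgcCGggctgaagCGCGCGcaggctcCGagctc
Zscan4c and Zscan4d each held 3 CG, and 70.0% of 27025 promoters of this length held at least as many. Syce1 held 13 CG, a number that 31.5% of promoters reached, and Mael held 18, which 21.5% reached. CG reads the same on both strands, and these counts describe the windows alone.

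Of 44 genes on the 2-cell list, 29 passed the expression filter, and of these 25 were called lower in KO under UNC0638 and 0 higher (2.31% of all genes tested were lower). In 24 of the 29, no KO UNC0638 library held a read, so they passed the filter through the other libraries, the fitted differences are set by the depth, and the count is a description only. Summed over all 44 genes with no filter, the list had 2949, 3611 and 16910 normalized counts in WT UNC0638 and 1209, 770.8 and 963.9 in KO UNC0638. The 15 genes that did not pass summed to 57.2, 39.2 and 253 of these in WT and 4.6, 19.4 and 26.2 in KO, so they too were higher in each WT library than in any KO library, at low levels. Most of the list sum in each KO UNC0638 library was Nelfa, at 382, 303 and 402, and Rxra, at 812, 445 and 516. Neither of them was called, so little of the KO sum came from the rest of the list. Zscan4c (chr7:11005745-11010547) had 188, 221 and 1856 normalized counts in WT UNC0638 and 0 in all KO libraries. Replicate 3 was far above the other two WT libraries, and even the lowest WT library was well above 0. By the mean of the WT libraries, which replicate 3 raised, Zscan4c was at least 796-fold lower in KO (adjusted p = 5.83e-05). The fold would be smaller without that library, and so would those of Usp17lb and Gm4340 below. Usp17lb (chr7:104840257-104842603), a deubiquitinase of the Usp17-like family, had 227, 340.1 and 1421 normalized counts against 0, at least 699-fold lower (adjusted p = 5.35e-06). Gm4340 (chr10:104194042-104196522), a predicted gene of a tandem family, had 318, 324 and 2093 against 0, the lowest log2 difference after Dppa4 and at least 961-fold lower (adjusted p = 1.23e-05). Zfp352, a zinc-finger retrogene of the 2-cell embryo, was much weaker in WT, at 16.7, 12.1 and 47.9, and again 0 in KO.

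The 4 genes of the list that were not called were Nelfa, Rxra, Arg2 and AF067061. Nelfa, a subunit of the negative elongation factor, had 353, 401 and 572 normalized counts in WT UNC0638 and 382, 303 and 402 in KO, with overlapping ranges. Rxra, a retinoid receptor, was likewise overlapping, at 394, 462 and 449 against 812, 445 and 516. AF067061 was at a mean of 18.7 in WT and 0 in KO without passing the threshold. The count depended on single libraries: 14 of 29 were lower without WT UNC0638 replicate 3, 19 without KO UNC0638 replicate 3 and 14 without both. Zscan4c, Zscan4d, Usp17lb, Usp17le and Gm4340 stayed called in all 25 alternative settings that were tried.

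**Figure D1:**
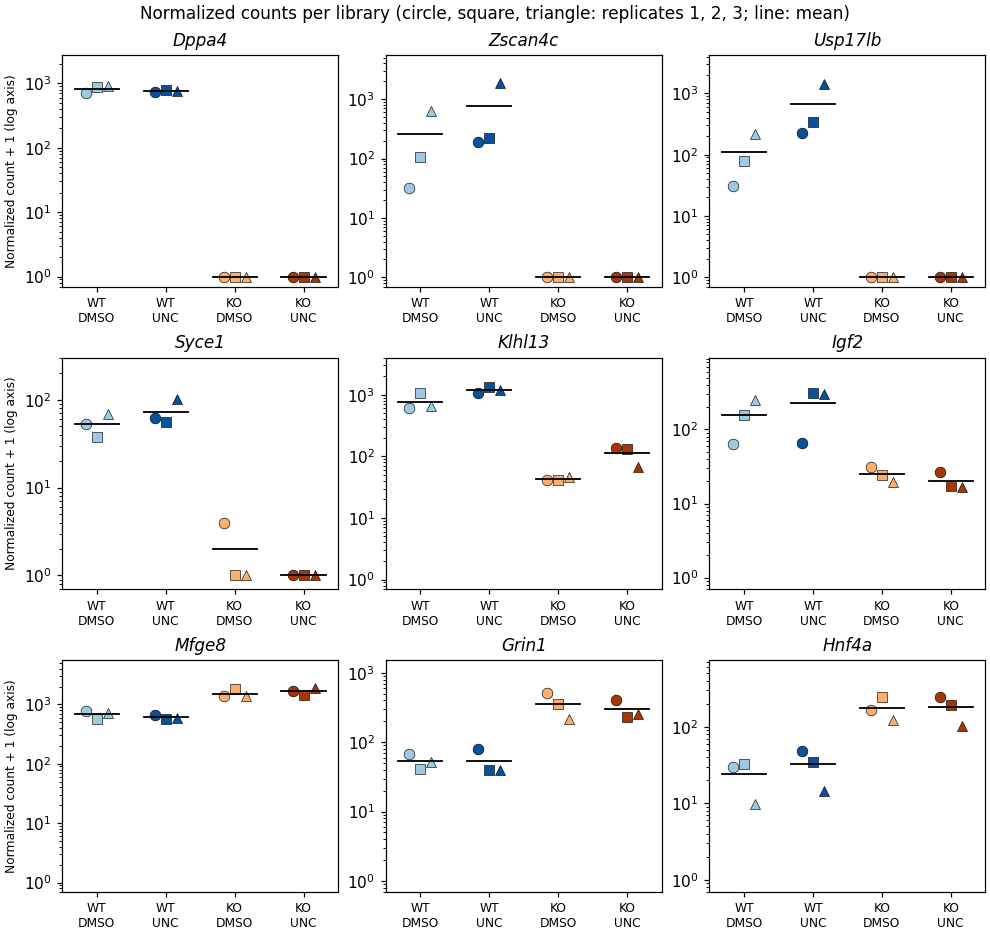
Normalized counts of 9 genes in each of the 12 libraries, on a log axis of normalized count + 1, with circles, squares and triangles for replicates 1, 2 and 3 and a line at the group mean. Dppa4, Zscan4c, Usp17lb and Syce1 sit at or next to 0 in the KO groups, Klhl13 and Igf2 are lower but present, and Mfge8, Grin1 and Hnf4a are higher in KO.

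Some of the lower genes lay next to each other. A run was taken as at least 4 genes called lower with gaps of at most 200 kb, and it was bounded by its first and last called gene. The share of lower genes within a run is therefore largely set by this rule and is a description only. The 9 tested genes of the Zscan4 cluster (chr7:10794242-11614112) were all lower in KO. Their summed normalized counts were 1032, 1395 and 9166 in WT UNC0638, 171, 541 and 2658 in WT DMSO, and 0 in all 6 KO libraries. The same held for the 7 genes of the Gm4340 cluster (chr10:104142987-104196522), with 1224, 1172 and 7881 in WT UNC0638 and 0 in KO. On chromosome 12, 7 of 7 tested genes at chr12:87480108-87895804, among them Gm8300, Gm2016 and BB287469, summed to 247, 289 and 1812 in WT UNC0638 and 0 in KO UNC0638. The 4 of 4 at chr12:88249666-88324026, among them Gm5662, summed to 245, 215 and 1579 against 0. A further 7 of 7 predicted genes at chr7:50940546-51176537 summed to 99.5, 130 and 491 against 0. WT UNC0638 replicate 3 gave the highest sum of every one of these clusters, and in DMSO WT replicate 3 did so too.

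The sixth run of neighbours differed from the others, because it kept some signal in KO. It was the Fthl17 cluster on the X chromosome (chrX:8962134-9063861), of ferritin heavy chain-like genes, with 5 of 6 tested genes lower. Its sum was 350, 152 and 576 in WT UNC0638 and 7.36, 47.3 and 17.5 in KO UNC0638, without overlap, while KO DMSO held 0, 1.02 and 0. Members of all these clusters are near copies of each other and reads with many places were assigned at random, so the sums are firmer than the value of a single copy.

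**Figure D2:**
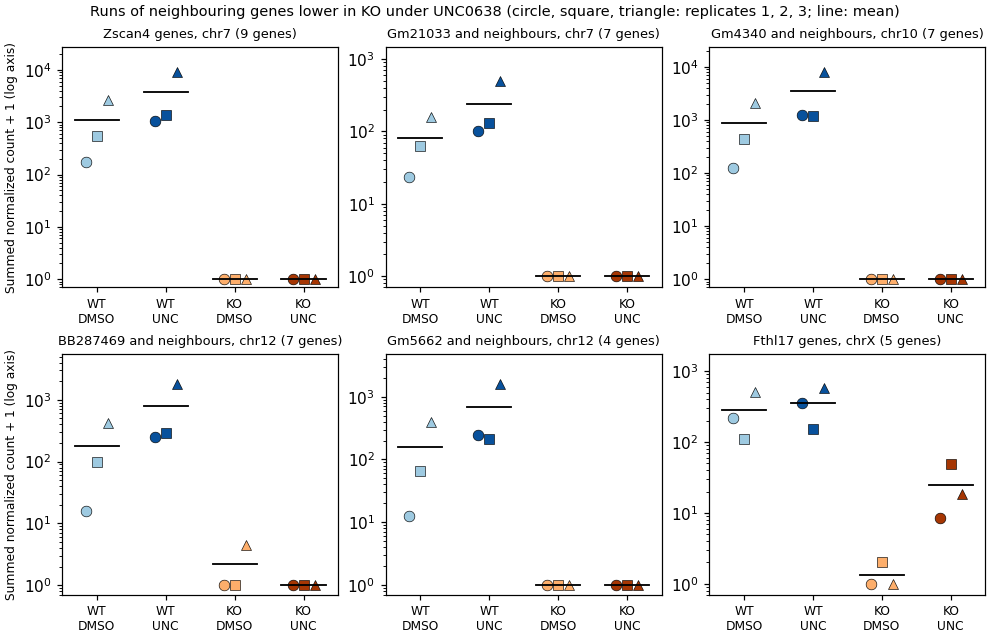
Summed normalized counts (log axis of sum + 1) of the called genes in each of the 6 runs of neighbouring lower genes, with circles, squares and triangles for replicates 1, 2 and 3 and a line at the group mean. The KO libraries lie at 0 in the autosomal runs apart from a single KO DMSO library on chromosome 12, whereas the Fthl17 run on X reaches up to 47.3 in KO UNC0638.

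Classes that the study made from other libraries were set beside these values. They sort the genes that rose after 7 d of EHMT2 degradation by whether they lie in an EHMT2 coordinately repressed domain (ECORD, a cluster of genes that rise together) and by whether they are 2CLC or mESC genes. Of 227 2CLC genes in ECORDs, 78 passed the expression filter, and of these 57 were called lower in KO under UNC0638 and 0 higher. In 56 of the 78 no KO UNC0638 library held a read, so these genes passed through the other libraries and the count is a description only. Of 263 2CLC genes outside ECORDs 146 passed, 14 of them with no KO UNC0638 read, and 31 were lower and 2 higher. For mESC genes the counts were 2 lower of 14 tested (44 listed) in ECORDs, and 28 lower and 2 higher of 262 tested (378 listed) outside them. In the class of genes that had fallen after EHMT2 loss, 7 were lower and 25 higher of 491 tested (668 listed). The 16267 tested genes in no class had 274 lower (1.68%) and 139 higher (0.854%), against 2.31% and 0.973% of all genes tested. In the order given, the classes had 73.1%, 21.2%, 14.3%, 10.7% and 1.43% lower and 0.0%, 1.37%, 0.0%, 0.763% and 5.09% higher. The share lower among the genes that had fallen was thus below that of all genes.

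Most class counts fell when libraries were left out, as did the counts over all genes tested. The 399 lower genes became 125 without WT UNC0638 replicate 3 and 122 without WT UNC0638 replicate 2. They became 326 without KO UNC0638 replicate 3 and 100 without both libraries numbered 3. In this order the 168 higher genes became 70, 55, 115 and 56. The 2CLC genes in ECORDs had 23 lower without WT UNC0638 replicate 3, 30 without WT UNC0638 replicate 2, 37 without KO UNC0638 replicate 3 and 20 without both libraries numbered 3, with 0 higher in each. In the same order the 2CLC genes outside ECORDs had 8, 13, 17 and 7 lower, and the mESC genes outside ECORDs had 16, 13, 28 and 10. The class that had fallen after EHMT2 loss had 2, 1, 9 and 1 lower and 8, 7, 17 and 8 higher, so its lower count rose without KO UNC0638 replicate 3.

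Sums over every listed gene need no filter. The 227 2CLC genes in ECORDs summed to 4802, 4820 and 27490 normalized counts in WT UNC0638 and 631.9, 1164 and 601.6 in KO UNC0638. In DMSO they summed to 871.5, 1914 and 8214 in WT and 202.5, 231.3 and 304.1 in KO. WT lay above KO in both treatments, and 2 of the 3 KO UNC0638 libraries lay below all WT DMSO libraries. The KO sums were themselves higher under UNC0638 than in DMSO, without overlap, while the ranges of WT overlapped. Over the 78 tested genes the median log2 difference of UNC0638 from DMSO was 2.01 in WT and 0.0 in KO. In KO UNC0638 56 of these 78 had no read. Whether the sums rose alike in the genotypes was not tested. The 263 2CLC genes outside ECORDs summed to 13180, 17930 and 22980 in WT UNC0638 and 8255, 10160 and 9527 in KO UNC0638, a narrower gap. The 378 mESC genes outside ECORDs summed to 46200, 54910 and 47540 against 33040, 35160 and 37390. For the 668 genes that had fallen after EHMT2 loss the order was the other way round, at 28710, 28230 and 33310 in WT UNC0638 and 44730, 35930 and 36280 in KO UNC0638.

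**Figure D3:**
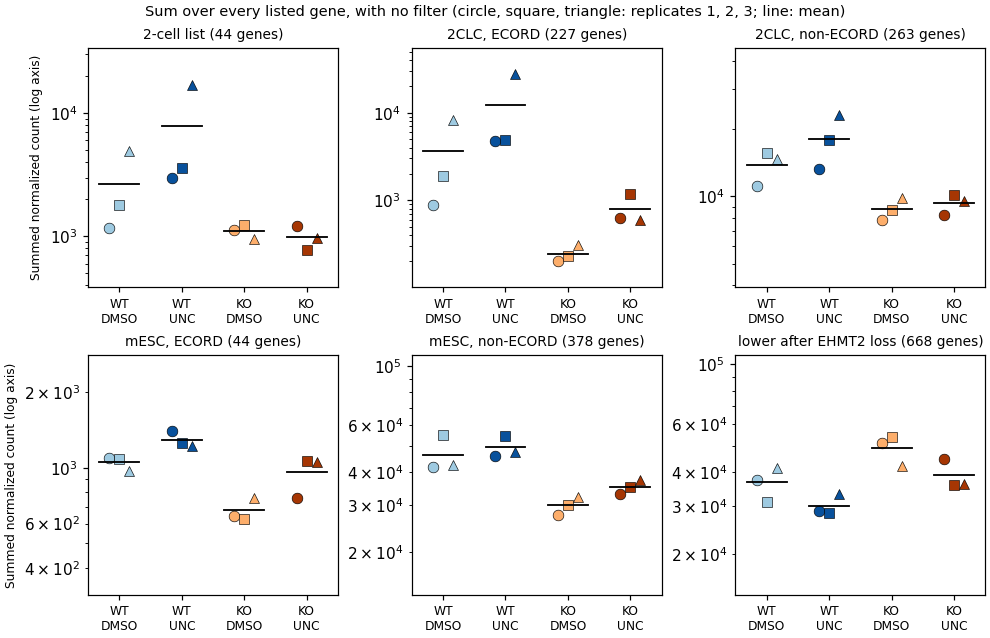
Summed normalized counts (log axis) of the 2-cell list and of each 7 d class in each of the 12 libraries, over every listed gene with no filter, with circles, squares and triangles for replicates 1, 2 and 3 and a line at the group mean. The 2CLC genes in ECORDs reach 4802 to 27490 in WT UNC0638 and 601.6 to 1164 in KO UNC0638, and the genes lower after EHMT2 loss lie higher in KO UNC0638 than in WT UNC0638. Most of the KO sums of the 2-cell list are Nelfa and Rxra, which were not called.

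Sorted cells give another view that does not use these libraries. By the deposited group means of GFP-positive 2CLC and GFP-negative mESC sorted from DMSO cultures of another line, 43.9% of the 399 lower genes (175) were at least 2-fold higher in 2CLC, against 10.2% of all genes tested (1763). Of the 168 higher genes, 7.14% (12) were, while 36.9% (62) were at least 2-fold lower in 2CLC, against 10.3% of all genes. The 4 tested 2CLC markers (Zscan4c, Zscan4d, Zfp352 and Usp17la) were all lower in KO, and their sum was 392 to 3530 in WT UNC0638 and 0 to 3.49 in KO UNC0638. The part that a changed number of 2CLC has in any result was not tested.

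Of 37 germline and meiosis genes 26 were tested, and 8 of these were called lower and 0 higher (2.31% of all genes tested were lower), with a median log2 difference of -1.38. These are genes of the synaptonemal complex, of piRNA silencing and of germ cell RNA control. Syce1 (chr7:140777229-140787852), a component of the synaptonemal complex, had 61.6, 54.2 and 99.8 normalized counts in WT UNC0638 and 0 in KO UNC0638, at least 75.8-fold lower (adjusted p = 0.000114). Without the inhibitor it had 52.4, 36.9 and 67.3 in WT. Mael (chr1:166201201-166238747), which acts in transposon silencing by piRNAs, had 64.3, 58.9 and 79 against 3.68, 0 and 1.75. Ddx4, the Vasa RNA helicase, had 48.4, 35.5 and 35.1 against 3.68, 0 and 0. Both groups of libraries were well apart for each gene. Rpl10l (chr12:66283379-66284401), the testis paralogue of a ribosomal protein, was by far the most abundant of the named members, at 1561, 1285 and 1410.0 in WT UNC0638 and 137, 186 and 365 in KO, a log2 difference of -2.74 (SE 0.34, adjusted p = 0.000259).

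The other germline genes called lower were Dazl, Mov10l1, Tdrd12 and Tex19.1, at -4.55, -3.12, -1.80 and -1.45 (log2 difference). All 8 were called lower in DMSO as well. In the sorted cells, 5 of the 8 were at least 2-fold higher in 2CLC than in mESC, with log2 ratios of 1.55 for Syce1, 2.95 for Mael, 3.02 for Rpl10l, 2.86 for Dazl and 1.87 for Tex19.1, while Ddx4 was at 0.18, Mov10l1 at 0.74 and Tdrd12 at 0.69. Hsf2bp and Tuba3a, the most abundant members that were not called, were at ratios of 1.33 and 1.76 of KO to WT. Without WT UNC0638 replicate 3 the count was 5 of 26, and with both libraries numbered 3 left out it was 2, while Syce1 and Rpl10l stayed called in all 25 settings. The Magea, Rhox and Xlr genes, X-linked germline families, had 2 of 8 lower (2.31% of all genes). Rhox6 had 28.2, 56.1 and 53.5 in WT UNC0638 and 5.52, 0 and 1.75 in KO, and Rhox9 had 9.69, 29 and 16.8 against 0. Rhox5, not called under UNC0638 at 76.6, 164 and 176 against 29.4, 82.8 and 50.6, was lower in DMSO at 32.6, 59 and 94.4 against 1.96, 8.15 and 3.48. Rhox9 lost its call without WT UNC0638 replicate 2 or 3, and the count of 2 became 0 with both libraries numbered 3 left out.

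Imprinted genes had 4 of 25 tested lower (2.31% of all genes) and 0 higher, with a median of -0.66 against -0.04 over all genes. Igf2 (chr7:142650766-142666816), a growth factor expressed from the paternal allele, had 65.2, 310.2 and 303 normalized counts in WT UNC0638 and 25.8, 16.1 and 15.7 in KO, a log2 difference of -3.23 (SE 0.56, adjusted p = 0.0043). The WT libraries were spread widely, with replicate 1 lowest, but did not overlap KO. Peg10, a retrotransposon-derived gene of the placenta, had 2439.8, 4561 and 3822 against 1522, 1772 and 1049 (log2 difference -1.30, adjusted p = 0.00711). Grb10, an adaptor that restrains growth factor signalling, had 3106, 2901 and 3887 against 1339, 1681 and 1644 (-1.08, adjusted p = 0.00484). Peg10 lost its call without WT UNC0638 replicate 2, and Grb10 without WT UNC0638 replicate 3 or KO UNC0638 replicate 1. Dlk1, a non-canonical Notch ligand, had 31.7, 81.3 and 75.8 against 15.6, 10.8 and 28.8 (-1.72, adjusted p = 0.0462), and was called in 11 of 25 alternatives. With both libraries numbered 3 left out, 0 of 25 were called.

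Klhl13 (chrX:23219271-23365082), an X-linked adaptor of the cullin-3 ubiquitin ligase, was among the 5 lower genes with the lowest adjusted p and on none of these lists. It had 1063, 1337 and 1197 normalized counts in WT UNC0638 and 138, 129 and 67.2 in KO, 10.8-fold lower (log2 difference -3.48, SE 0.27, adjusted p = 3.13e-06). The groups were far apart, with KO UNC0638 replicate 3 well below the other KO libraries, and Klhl13 was called in all 25 settings. In DMSO it was 598, 1063 and 657 in WT against 40.1, 40.8 and 45.3 in KO. On the X chromosome as a whole 30 of 605 tested genes were lower (4.96%) and 2 higher, with a median log2 difference of -0.28, while the medians of the autosomes ran from -0.14 to 0.06. The X median was -0.23 in DMSO. Of 2 tested Y-linked genes 1 was lower (2.31% of all genes were). This was Eif2s3y, a translation factor gene, which had 33.5, 5.61 and 20.8 in WT UNC0638 and 0 in KO, with 10.8, 0 and 0 in KO DMSO. It was called in 18 of 24 alternatives. Thus a difference between the clones in the sex chromosomes cannot be told apart from an effect of Dppa4.

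Of 24 naive pluripotency genes 1 was lower (2.31% of all genes tested were) and 0 were higher (median 0.25). It was Dppa3, a maternal factor that is also on the list of repressors of the 2-cell-like state, with 26.4, 49.5 and 224 normalized counts in WT UNC0638 and 8.28, 8.6 and 2.62 in KO, and its call was lost without WT UNC0638 replicate 2, without replicate 3 and without KO UNC0638 replicate 3. Nanog had 10773, 8118 and 9095 against 9074, 10028 and 10568, with overlapping ranges. Klf4, a cell type marker, had 1464, 1386 and 1178 against 2200.1, 2329 and 2057 (log2 difference 0.71, adjusted p = 0.0223), which was short of the limit of 1. Formative and primed epiblast genes had 2 of 19 lower (2.31% of all genes, median -0.46). The de novo DNA methyltransferase Dnmt3b was at 1287, 2130.3 and 2212 against 633, 704 and 1072. The transcription factor Sox3 was at 28.2, 86.9 and 125 against 16.6, 4.3 and 28.8. Both calls were lost without any one of WT UNC0638 replicates 2 and 3 and KO UNC0638 replicates 1 and 2.

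Trophoblast genes had 3 of 13 tested lower (2.31% of all genes) and 0 higher (median -0.83). Hand1, a transcription factor of trophoblast giant cells and heart, had 9.69, 111 and 106 normalized counts in WT UNC0638 and 1.84, 0 and 0 in KO (log2 difference -5.16, SE 0.97, adjusted p = 0.00765). Cdx2, which specifies trophectoderm, had 16.7, 19.6 and 24.8 against 1.84, 0 and 1.75, and Krt18, a keratin of simple epithelia, had 59, 537 and 423 against 39.6, 29 and 56.8. For Hand1 and Krt18, WT UNC0638 replicate 1 was far below the other two WT libraries, and 0 of the 13 were called without replicate 3. Hand1 also lost its call without WT UNC0638 replicate 2, Cdx2 was called in 18 of 24 alternatives and Krt18 in 13 of 25. Primitive endoderm genes had 1 lower and 1 higher of 12 (2.31% and 0.973% of all genes, median -0.49). The laminin subunit Lamb1 was lower, at 308, 367 and 283 against 158, 138 and 133. Hnf4a, a nuclear receptor of visceral endoderm and liver, was higher, at 47.5, 33.6 and 13.6 against 242, 190.3 and 103 (log2 difference 2.54, adjusted p = 0.0112), and its call was lost without WT UNC0638 replicate 3. Of 14 developmental regulators 2 were higher (0.973% of all genes). Cdx1 had 34.3, 36.4 and 27.9 against 99.3, 115 and 117, and Sox1 had 80.1, 67.3 and 53.5 against 222, 146 and 150.2. Sox1 was called in 16 of 25 alternatives, and Cdx1 was called in 24.

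Of 21 genes of H3K9 methylation and heterochromatin, 2 were lower (2.31% of all genes tested were) and 0 higher (median -0.29). Cbx5, which encodes heterochromatin protein HP1 alpha, had 9089, 9639 and 9393 normalized counts in WT UNC0638 and 5919, 6582 and 2608 in KO, and the zinc-finger gene Zfp462 had 1065, 1180.1 and 1019 against 756, 692 and 265. In both, KO UNC0638 replicate 3 was far below the other KO libraries, and without it, by edgeR and by DESeq2 neither was called. Cbx5 was called in 14 and Zfp462 in 5 of 25 alternatives. Trim28, the KRAB co-repressor of retroviruses, was at a KO to WT ratio of 1.08. Of 12 DNA methylation genes 1 was lower (Dnmt3b, above) and of 18 repressors of the 2-cell-like state 1 was lower (Dppa3, above). Both counts stand beside 2.31% of all genes. Limma called 0 of 13 interferon-stimulated genes (median -0.09), with 2 below an unadjusted p of 0.05, where edgeR called 0 and DESeq2 1 lower. It called 0 of 18 p53 targets (median 0.23), with 2 below an unadjusted p of 0.05 and 0 calls by edgeR and DESeq2. Of 7 PRAME-like genes (median 0.55) it called 0, with 4 below an unadjusted p of 0.05, where edgeR and DESeq2 each called 1 lower.

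Crxos, a homeobox gene near the Obox cluster and the single tested gene of the Obox and Crxos list, differed in its pattern from the Zscan4 clusters. It had 88.9, 58.9 and 69.5 normalized counts in WT UNC0638 and 109, 126 and 141 in KO UNC0638, but 8.14, 3.69 and 16.6 in WT DMSO and 11.7, 21.4 and 10.4 in KO DMSO. Both genotypes were thus high with the inhibitor and low without it, and KO was not below WT in either treatment (log2 difference under UNC0638 0.80, SE 0.46, adjusted p = 0.352). Pramef12, a leucine-rich PRAME-like gene, was abundant in all groups, at 903, 791 and 754 in WT UNC0638 and 1510.3, 1335 and 1086 in KO (log2 difference 0.67, adjusted p = 0.0673).

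Feeder fibroblast genes had 1 of 20 lower (2.31% of all genes, median -0.64). This was the collagen cross-linking enzyme Lox, at 1197, 1541 and 977 normalized counts against 596, 659 and 533. Its call was lost without WT UNC0638 replicate 1 or 2 or KO UNC0638 replicate 3. The summed feeder markers Col1a1, Col1a2, Col3a1, Thy1, Postn and Fbln2 ran from 4186 to 5688 in WT UNC0638 and from 2772 to 3238 in KO UNC0638, without overlap. Limma called 0 of these 6 markers, with 4 below an unadjusted p of 0.05, and edgeR and DESeq2 called 0. Most of the sum was Fbln2, at 2906, 3444 and 2443 in WT and 1903, 1655 and 1628 in KO. Its log2 difference of -0.75 (adjusted p = 0.0202) was short of the limit of 1. Those of Col1a1, Col1a2, Col3a1, Thy1 and Postn were -0.32, -0.48, -0.74, -0.67 and -1.21. The ranges of Col1a1 and Col3a1 overlapped, and those of Col1a2, Thy1, Postn and Fbln2 did not. In DMSO 5 of the 20 feeder fibroblast genes were lower, against 3.1% of all genes tested. The part of feeder RNA in the lower genes was not tested.

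Mfge8 (chr7:79133768-79149060), a secreted glycoprotein that bridges apoptotic cells to phagocytes, had 667, 565 and 589 normalized counts in WT UNC0638 and 1693, 1450.3 and 1853 in KO, 2.74-fold higher and the higher gene with the lowest adjusted p (log2 difference 1.45, SE 0.17, adjusted p = 0.000188). Ndrg1, a stress-responsive gene, had 424, 413 and 512 against 1295, 1303 and 1037, and Ptger1, a prostaglandin E2 receptor, had 55.5, 65.4 and 38.3 against 270.4, 202 and 169. These groups were far apart, and the 3 genes were called in all 25 settings. Crocc2, a paralogue of the ciliary rootlet protein, had 80.1, 75.7 and 107 against 376, 274 and 373, and Dnaic2, an axonemal dynein intermediate chain, had 19.4, 6.54 and 21.6 against 178, 80.6 and 203 (log2 difference 3.25, SE 0.44, adjusted p = 0.000628).

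Grin1 (chr2:25291181-25319187), the obligate subunit of NMDA receptors, had 80.1, 38.3 and 39.1 normalized counts in WT UNC0638 and 412, 227 and 251 in KO, 5.65-fold higher. Grin1os lies antisense to it (chr2:25291220-25298925) and had 6.16, 3.74 and 7.98 against 83.7, 43 and 38.4. Reads were counted with the default settings of the tool, which take no account of strand, so reads of the pair cannot be told apart. Slc11a1, a metal transporter of phagosomes, had 128, 53.3 and 76.6 against 598, 272 and 631. Several of the largest ratios belonged to genes that were close to 0 in WT. Bdh2, a hydroxybutyrate dehydrogenase, had 1.76, 0.934 and 3.19 against 21.2, 29 and 27.9, Saa3, an acute-phase protein, had 0.88, 2.8 and 2.4 against 18.4, 34.4 and 34.9, and the dynein subunit gene Dync1i1 had 0.88, 0.934 and 2.4 against 21.2, 9.68 and 32.3. Saa3 was called in 17 and Dync1i1 in 10 of 24 settings, while Bdh2 was called in all 24. The remaining named higher genes were Catsperz, Crtac1, Gm43860 and 4930579K19Rik, at 6.86, 6.48, 5.75 and 8.33 times the WT level. Crtac1 was called in 18 of 25 alternatives and 4930579K19Rik in 19 of 24.

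KO and WT also differed without the inhibitor. In DMSO 535 genes were lower in KO (3.1% of those tested) and 230 higher (1.33%). With no filter on low values the lower genes numbered 429 in DMSO and 536 under UNC0638, so which treatment had more depended on the filter. The DMSO libraries are not those compared under UNC0638, but they came from the same lines, and WT libraries with the same number deviated together from their group means (r = 0.246, 0.103 and 0.431 over genes), which those of KO did not in each pair (0.154, -0.092 and 0.013). The values of the treatments are therefore not independent. Of the 399 genes lower under UNC0638, 211 were called lower in DMSO too, which is 52.9% of the first list and 39.4% of the second, and 0 were called higher. The sign was the same in 391 of the 399, with medians of -2.73 under UNC0638 and -1.9 in DMSO. Of the 168 higher genes, 74 were called higher in DMSO, 44.0% and 32.2% of the lists, and 164 had the same sign, with medians of 1.38 and 1.1. The share of same-sign genes over all genes tested was not computed, so the counts of signs are a description only. The DMSO counts also hung on single libraries, at 189 lower and 91 higher without WT DMSO replicate 2 and 275 and 87 without KO DMSO replicate 1.

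**Figure D4:**
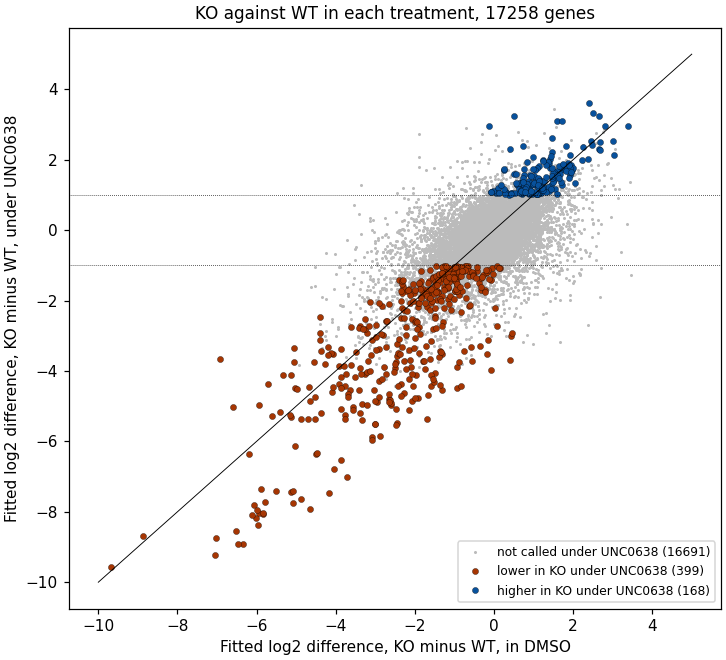
Log2 difference of KO minus WT in DMSO (x axis) and under UNC0638 (y axis) for each of 17258 tested genes, with genes lower in KO under UNC0638 in red, higher ones in blue and the rest in grey, the diagonal as equal difference and dotted lines at -1 and 1. Of the called genes, 391 of 399 lower and 164 of 168 higher have the same sign on both axes, and the share over all genes was not computed.

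The test of whether the difference between KO and WT was larger under the inhibitor than in DMSO called no gene. With limma, 0 genes were called lower (0.0%) and 0 higher (0.0%), the smallest adjusted p was 0.775, and 1076 genes had an unadjusted p below 0.05. On the recovered reads edgeR called 0, with 1032 genes below an unadjusted p of 0.05, and DESeq2 called 0, with 1184 and a smallest adjusted p of 0.0733. Zscan4c was 0 in KO in both treatments, against 31.4, 107 and 622 in WT DMSO, so KO was at the floor of the measurement with and without the inhibitor. A single gene was called without WT UNC0638 replicate 3, Riok1, an atypical kinase of ribosome assembly, named after its values were seen. It had 4616, 4444 and 119.8 normalized counts in WT UNC0638, and its difference of effects was -6.82 (adjusted p = 0.000637) without that library.

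Some genes called under UNC0638 had a small difference in DMSO. Of the lower genes 31, and of the higher genes 21, were within 0.5 of 0 on the log2 scale in DMSO. They were picked by these values, and no gene was called for the difference itself in the main fit. The counts are therefore a description only. Cdx1, a caudal-type homeobox gene, had 55.8, 61.5 and 57.7 normalized counts in WT DMSO and 67.5, 49.9 and 99.8 in KO DMSO, a log2 difference of 0.25, against 1.72 under UNC0638 (SE 0.30 for each). Its WT libraries were all lower with the inhibitor than without it, while KO UNC0638 lay at 99.3 to 117. Bdh2 had 14, 11.1 and 11.4 in WT DMSO and 21.5, 10.2 and 24.4 in KO DMSO, with log2 differences of 0.51 in DMSO and 3.25 under UNC0638. Neither gene was called for the difference itself.

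Among repeats, 8 of 781 tested families were lower in KO under UNC0638 (1.02%) and 1 was higher (0.128%). MERVL-int, the internal part of the retrovirus that marks 2CLC, had 14593, 12274 and 53609 normalized counts in WT UNC0638 and 1244, 1407 and 444 in KO, 26.0-fold lower (log2 difference -4.53, SE 0.53, adjusted p = 1.2e-05). Its promoter repeat MT2_Mm had 1358, 1239.9 and 5702 against 269, 352 and 269.8 (-2.85, SE 0.47, adjusted p = 0.000754). For both, WT replicate 3 was highest by far and the groups did not overlap. Unlike the Zscan4 genes, MERVL-int was never at 0 in KO, nor in DMSO, where it had 952, 644 and 1006 in KO and 2199, 4355 and 12607 in WT.

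Young LINE-1 families were lower as well. L1Md_A, an active subfamily, had 15432, 8178 and 22979.8 normalized counts in WT UNC0638 and 2775, 1857 and 2592 in KO (log2 difference -2.59, SE 0.47, adjusted p = 0.00181). L1Md_T had 12878, 7227 and 19868 against 2414, 2872 and 2223 (-2.30, SE 0.36, adjusted p = 0.000544), and L1Md_Gf had 437, 205 and 606 against 37.7, 66.7 and 30.6 (-3.12, SE 0.43, adjusted p = 0.000104). The groups were apart for all 3 families, with WT replicate 3 highest and replicate 2 lowest. Of 6 tested L1Md families 3 were lower, and L1Md_F, L1Md_F2 and L1Md_F3 were not called, at -0.80, -0.37 and -0.78. Over all 117 tested L1 families 5 were lower (1.02% of all families were), with a median of -0.53. L1_Mm was one of them, at 394, 245 and 585 against 118, 128 and 108, and the old family L1M4c was another, at 119, 112 and 105 against 51.5, 33.3 and 32.3. L1_Mm lost its call without WT UNC0638 replicate 3, and L1M4c was called in 14 of 24 settings. L1Md_A lost its call with both UNC0638 libraries numbered 3 left out, while L1Md_T and L1Md_Gf were called in all 24.

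The last lower family was MLT1G1, an old LTR of the MaLR group, with 478, 329.8 and 429.5 normalized counts in WT UNC0638 and 136, 169 and 56.8 in KO (-1.89, SE 0.33, adjusted p = 0.00162). The higher family was RLTR1B, an ERV1 LTR, with 416, 241 and 442 against 748, 929 and 1362 (1.47, SE 0.29, adjusted p = 0.00508), and its call was lost without WT UNC0638 replicate 2. IAPEz-int, the internal part of IAP retroviruses that H3K9me3 represses, had 11741, 7861 and 9314 against 13816, 14180.2 and 6177, with overlapping ranges and a log2 difference of 0.16 that was not called. Of 244 ERVK families limma called 0 (median -0.27), with 29 below an unadjusted p of 0.05, while edgeR called 0 and DESeq2 3 lower. Further, 2 of 61 ERVL families were lower (1.02% of all families, median -0.41), and the major satellite GSAT_MM was not among the families tested. The median of all repeat families was -0.34 under UNC0638, -0.12 without KO UNC0638 replicate 3 and 0.03 in DMSO, so the small shift of the bulk of families moved with that library.

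In DMSO 3 repeat families were lower in KO (0.384%) and 2 higher (0.256%). The lower ones were L1Md_Gf, MERVL-int and L1Md_T, all lower under UNC0638 too. The higher ones were RLTR1B and its internal part RLTR1B-int, of which the first was also higher under UNC0638. L1Md_A overlapped in DMSO, at 5691, 11011 and 10643 in WT and 4178, 1266 and 8588 in KO, whereas under UNC0638 it did not. For the difference of the UNC0638 effects limma called 0 families lower (0.0%) and 0 higher (0.0%), with 42 below an unadjusted p of 0.05. edgeR called 0 with 37 and DESeq2 called 0 with 44.

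**Figure D5:**
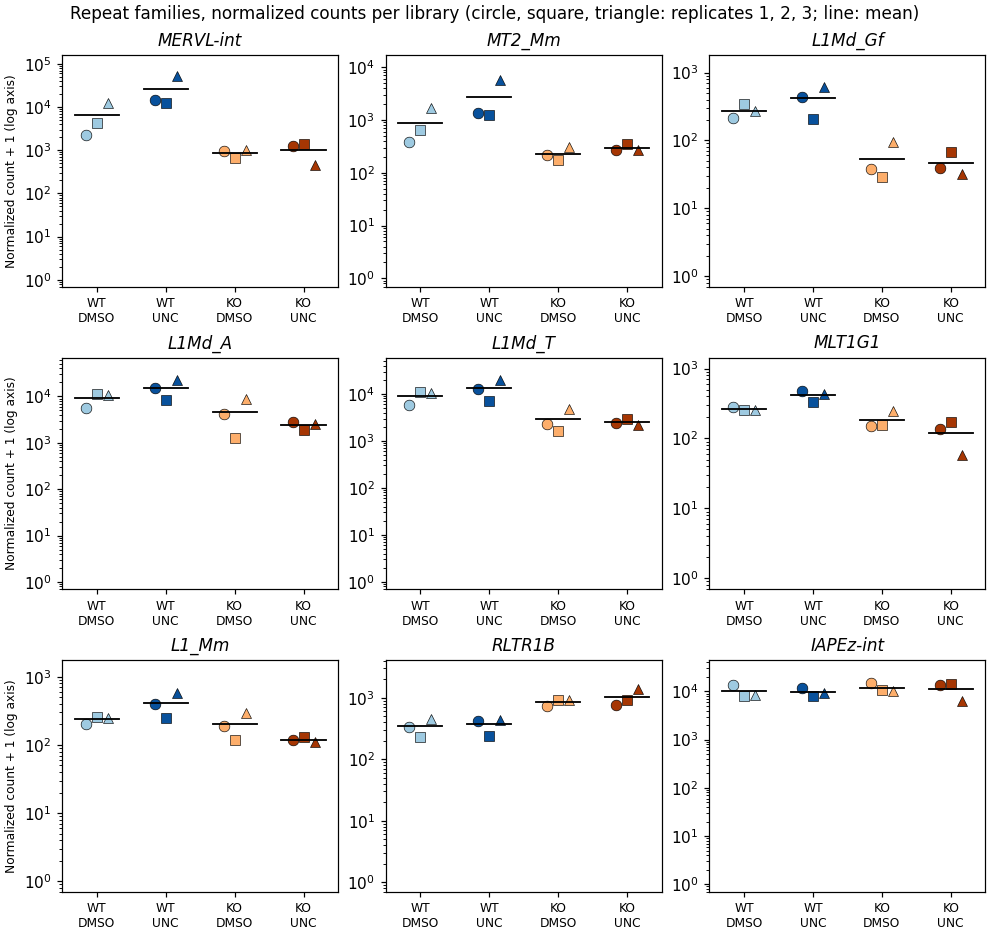
Normalized counts of 9 repeat families in each of the 12 libraries (log axis of normalized count + 1), with circles, squares and triangles for replicates 1, 2 and 3 and a line at the group mean. MERVL-int, MT2_Mm and the L1Md families are lower in KO UNC0638 than in WT UNC0638, RLTR1B is higher, and the IAPEz-int groups overlap.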

How the data were processed

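RNA of Dppa4 KO and WT J1 mESCs was taken after 48 h with UNC0638 or DMSO, 3 libraries per group, and sequenced as paired reads of 150 bases. The authors trimmed reads with Trim Galore 0.6.7, aligned them to mm10 with STAR 2.7.10 (up to 5000 places, 1 written at random, introns not allowed), counted GENCODE vM25 genes and repeat families with TEcounts, and divided the counts by DESeq2 1.34.0 size factors over genes and repeats together. The deposited signal is thus a normalized count. Counting used the tool's default settings, which ignore strand. Deposited columns of fold changes and p-values were not used, and of sorted cells only the authors' group means were.

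Whole reads were recovered from 100% of the values (within 0.01 of a whole read). Genes and repeat families that passed the edgeR expression filter (17258 of 55401 and 781 of 1146) were fitted by limma 3.58.1 with a trend on log2(normalized count + 1) over 4 groups and 12 libraries, comparing KO with WT under UNC0638 and in DMSO and testing the difference between these. A feature was called at an adjusted p below 0.05 with an absolute log2 difference of at least 1. The libraries are called replicates as labelled, and p-values measure the spread between them. Replicates of a group differed by more than sampling noise. A group at 0 was taken as 3 reads over its 3 libraries for an "at least" fold, which covers counting error only. The fold sets the mean of the WT libraries against that floor, so it does not cover the spread between WT libraries. edgeR 4.0.16 and DESeq2 1.42.0 on recovered reads, other filters and pseudocounts, the replicate number as a block and fits without 1 library each were alternatives. Coordinates are GENCODE's on GRCm38, promoters RefSeq's on GRCm38.p6, and copies of Dppa4 were sought with blastn 2.17.0. On simulated libraries of 17258 genes the fit of KO v WT under UNC0638 recovered 100 of 100 genes changed by 3 log2 units and 84 of 100 changed by 1.5, with 7 false calls among 17058. Only genes with higher counts were changed, and genes were drawn independently of each other, with no library that stood apart. These figures therefore do not cover genes near 0 or calls that rest on a single library.

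Named genes were Dppa4, Dppa2, Ehmt1 and Ehmt2; the 15 called genes with the lowest and the 12 with the highest log2 difference whose groups did not overlap and whose higher mean was at least 20; the 5 with the lowest adjusted p in each direction; up to 4 called and 2 other members of each of 18 lists; the 8 lowest and highest called repeat families; and 6 repeat families taken whatever they did. Members and lists were chosen with earlier results of these data known. A result of the developmental regulator list is not reported here.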

Additional observations from a re-analysis of the deposited data

How the results depend on the processing

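The counts of calls depended most on single libraries and on the threshold. Lower genes numbered 629 by DESeq2, 125 at an adjusted p below 0.01, 100 with both UNC0638 libraries numbered 3 left out (chosen after seeing the data), and 122 to 448 when each library was left out in turn. Higher genes numbered 50 at an adjusted p below 0.01, 56 with both libraries numbered 3 left out and 55 to 182 with each left out. Lower repeat families numbered 18 by DESeq2, 13 with the 6 UNC0638 libraries alone, 5 with both libraries numbered 3 left out and 7 to 12 with each left out, and higher ones numbered 2 with both out and 0 to 2 with each out. Genes with a smaller UNC0638 effect in KO numbered 1 with both out and 0 to 1 with each out. By edgeR the gene counts were 401 and 173, and with an exon-length trend removed (chosen after seeing the data) 429 and 195. Same-numbered KO and WT UNC0638 libraries correlated at 0.063, -0.086 and 0.124 in their deviations, and differently numbered ones at -0.152 to 0.096. These values do not settle whether the replicate numbers pair KO with WT. Same-numbered WT libraries in DMSO and UNC0638 correlated at 0.246, 0.103 and 0.431. A replicate block gave 537 lower and 216 higher genes and 11 lower and 1 higher repeat families, and a replicate block within genotype gave 408 and 166 genes and 0 for the difference of effects (smallest adjusted p 0.452).

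Of 104 named features 66 were called. Leaving out each library gave 1248 values, of which 1132 kept direction and call, 101 lost the call, 1 gained it and 14 changed sign, and the other settings gave 1331, of which 1249 kept both, 76 lost the call, 1 gained it and 5 changed sign. The features that changed sign were not called. When each library was left out in turn, the log2 difference ran from -0.27 to 0.05 for Ehmt1, -0.32 to 0.04 for Ehmt2, -0.22 to 0.15 for Vim, -0.06 to 0.28 for Zfp57, -0.07 to 0.21 for Dusp6, -0.03 to 0.21 for Trim28, -0.32 to 0.69 for Cdkn1c and -0.04 to 0.56 for IAPEz-int. With both libraries numbered 3 left out, Ehmt1 was at 0.11, Tet1 at 0.05 and Zfp57 at -0.05, and with the length trend removed Ehmt1 was at 0.02 and Rian at 0.01. The cause was not tested. Depth limits the fold of genes at 0 in KO, whose bounds are set by the reads of the libraries.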
